A study of Mus musculus with 8 samples.

Results

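Genes were compared between the 4 libraries labelled NC and ExDSS and the 4 labelled PC and Ex, in intestinal RNA of wild-type C57BL/6 mice. Of 14567 gene lines tested, out of 23282 in the table, 1235 (8.48%) had all 4 NC and ExDSS values above all 4 PC and Ex values. Another 883 (6.06%) had all 4 below, and 12449 overlapped. The higher genes were 58.3% of those separated, and 46.7% (1053 higher, 1203 lower) with upper-quartile scaling in place of TMM. Without Ex 2, the shallowest library, they were 33.1% (1461 higher, 2956 lower). The genes were chosen by these values: each was selected on the lowest log2 CPM (counts scaled to a common library size) of 1 side lying above the highest of the other, and the distance between those values is called the gap. The 4 against 4 contrast is therefore given as a description, with no test. By the labels, the contrast equals the interaction of DSS with exosomes.

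NC mice received buffer by gavage and no DSS (dextran sodium sulfate, a polymer toxic to the intestinal lining that serves as a colitis model). PC mice received buffer and then 3% DSS in drinking water for 6 days, Ex mice received 1 mg of bovine colostrum exosomes (vesicles secreted into first milk) by gavage each day for 3 weeks and no DSS, and ExDSS mice received exosomes and then DSS. Each group has 2 libraries, made from total RNA with a QuantSeq kit, which reads the 3' ends of polyadenylated transcripts. Gut region and age are not given in the sources used here. Whether a group's 2 libraries stand for 2 mice is not stated, and the p-values below then measure only the spread between libraries, which may be technical.

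The libraries go against what the labels would lead one to look for: genes of inflammation were high in the saline-labelled NC libraries and low in the DSS-labelled PC libraries. Whether labels were exchanged was not tested, and an exchange and an effect of the treatments cannot be told apart here. The 8 libraries were also uneven. Total counts were 8813622 to 12308537 in 7 libraries and 1163147 in Ex 2, where 53.5% of counts fell on Rn45s, the ribosomal RNA precursor, leaving 541286 others. Intestinal epithelial markers summed to 67.1 CPM in Ex 2 against 4230 to 7043 in the other 7, so a low value in Ex 2 was shared by markers of the tissue itself. A single count in Ex 2 is worth 1.49 CPM and 3 counts 4.47 CPM. Genes of pancreatic acinar cells held 9.68% of counts in NC 2 and 21.7% in ExDSS 1, and at most 0.285% elsewhere. NC 1 correlated more with PC 1 across genes (Pearson r 0.888) than with the libraries of its own side (0.652 to 0.775), and genes are not independent replicates.

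In DSS colitis, as background, loss of the epithelial barrier lets bacteria reach the mucosa. Resident macrophages and stromal cells then release interleukins and chemokines that bring in neutrophils and monocytes, and interferons induce guanylate-binding proteins and antigen-presentation genes in many cell types. Neutrophils carry calprotectin, the complex of S100A8 and S100A9 that is measured in stool to follow human bowel inflammation.

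S100a8 (gap 8.73 on the log2 scale, chr3:90669071-90670034) and S100a9 (7.39) encode calprotectin, Saa3 (6.15) an acute phase apolipoprotein, Cxcl10 (4.33) a chemokine for T cells, Gbp5 (4.50) a guanylate-binding protein and Isg15 (3.21) a ubiquitin-like antiviral protein. Their promoters, 250 bases before to 50 after the start site, are printed as examples from the many genes that were high together in the same libraries. Capitals mark matches, on either strand, to TATAAA, to the C/EBP word TTGCNNAA, to the interferon response word GAAANNGAAA and to the NF-kB consensus. The sequences are from RefSeq on GRCm38.p6, 5′ to 3′ in the gene's direction. They lie at chr3:90668821-90669120 (S100a8, plus strand), chr3:90695672-90695971 (S100a9, minus strand), chr7:46715627-46715926 (Saa3, minus strand), chr3:142496684-142496983 (Gbp5, plus strand), chr5:92348840-92349139 (Cxcl10, minus strand) and chr4:156200769-156201068 (Isg15, minus strand).
S100a8: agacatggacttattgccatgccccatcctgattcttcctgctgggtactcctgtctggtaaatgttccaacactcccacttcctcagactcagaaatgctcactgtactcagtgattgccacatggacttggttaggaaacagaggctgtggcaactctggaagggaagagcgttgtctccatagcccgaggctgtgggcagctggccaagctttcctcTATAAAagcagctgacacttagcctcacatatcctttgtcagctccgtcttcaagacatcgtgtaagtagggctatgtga
S100a9: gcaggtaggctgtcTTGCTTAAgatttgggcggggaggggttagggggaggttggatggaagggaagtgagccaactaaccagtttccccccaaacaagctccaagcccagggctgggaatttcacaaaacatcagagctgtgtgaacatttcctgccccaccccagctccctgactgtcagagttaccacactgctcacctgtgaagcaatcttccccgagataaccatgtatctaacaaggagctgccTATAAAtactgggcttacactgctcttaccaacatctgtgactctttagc
Saa3: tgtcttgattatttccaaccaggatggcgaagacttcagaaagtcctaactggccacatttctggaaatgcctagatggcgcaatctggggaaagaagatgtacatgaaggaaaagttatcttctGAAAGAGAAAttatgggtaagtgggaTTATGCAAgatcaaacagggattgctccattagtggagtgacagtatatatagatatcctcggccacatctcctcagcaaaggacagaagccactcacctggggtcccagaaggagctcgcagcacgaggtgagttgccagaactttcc
Gbp5: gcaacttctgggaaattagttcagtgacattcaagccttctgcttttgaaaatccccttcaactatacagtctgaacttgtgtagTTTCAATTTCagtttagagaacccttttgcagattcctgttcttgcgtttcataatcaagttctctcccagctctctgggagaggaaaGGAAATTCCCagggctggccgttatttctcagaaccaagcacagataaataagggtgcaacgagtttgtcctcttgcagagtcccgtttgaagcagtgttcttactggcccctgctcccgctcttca
Cxcl10: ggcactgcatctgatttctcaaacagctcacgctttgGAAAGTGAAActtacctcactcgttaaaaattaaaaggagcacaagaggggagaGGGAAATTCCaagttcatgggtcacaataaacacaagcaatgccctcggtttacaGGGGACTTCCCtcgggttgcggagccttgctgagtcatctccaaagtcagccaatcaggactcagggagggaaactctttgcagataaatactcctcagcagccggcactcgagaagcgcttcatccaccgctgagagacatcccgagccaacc
Isg15: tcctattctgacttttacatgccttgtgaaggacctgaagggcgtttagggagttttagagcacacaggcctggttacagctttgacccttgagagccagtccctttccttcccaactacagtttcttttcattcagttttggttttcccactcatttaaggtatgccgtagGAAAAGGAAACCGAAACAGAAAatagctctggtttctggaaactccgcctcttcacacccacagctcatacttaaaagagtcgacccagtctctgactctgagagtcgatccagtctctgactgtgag

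Each printed promoter holds a match, but not every higher member does. Stfa2l1, Serpina3n, Il11, Il21r, Ccl3, Ifitm1 and Tap1 were higher as well, and their promoters held none of these words. S100a8 and S100a9 hold a TATA word, and S100a9 a C/EBP word as well. Saa3 holds an interferon word followed by a C/EBP word, Gbp5 an interferon and an NF-kB word, Cxcl10 an interferon word and a pair of NF-kB regions, and Isg15 a run of 3 overlapping interferon words. RefSeq promoters were found for 10933 of the 14560 different gene names tested, and 3.90% of these held the interferon word. The share was 7.51% among 919 higher members, 16.3% (16 of 98) among higher members with a gap of at least 2, and 3.49% among 659 lower members. It was 90.9% (10 of 11) in a list of guanylate-binding and related GTPases and 51.7% (15 of 29) in a list of interferon-stimulated genes, whether or not the members were separated. The C/EBP word was in 10.5% of tested genes' promoters, 12.2% of higher members', 15.3% of those with a gap of at least 2 and 8.35% of lower members'. In an acute phase list it was in 10 of 12 (83.3%). TATAAA was in 9.74% of tested genes' promoters, 12.5% of higher members', 27.6% of those with a gap of at least 2 and 11.1% of lower members'. The NF-kB consensus was in 12.3% of tested genes' promoters, 12.7% of higher members', 17.3% of those with a gap of at least 2 and 14.7% of lower members'. Over all 32851 promoters of the table, of which other genes are part, the shares were 3.44% for the interferon word, 10.8% for C/EBP, 8.46% for NF-kB and 13.6% for TATAAA, and matches to different words overlapped in 5. A match is a description of letters, not a site of binding.

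**Figure D1:**
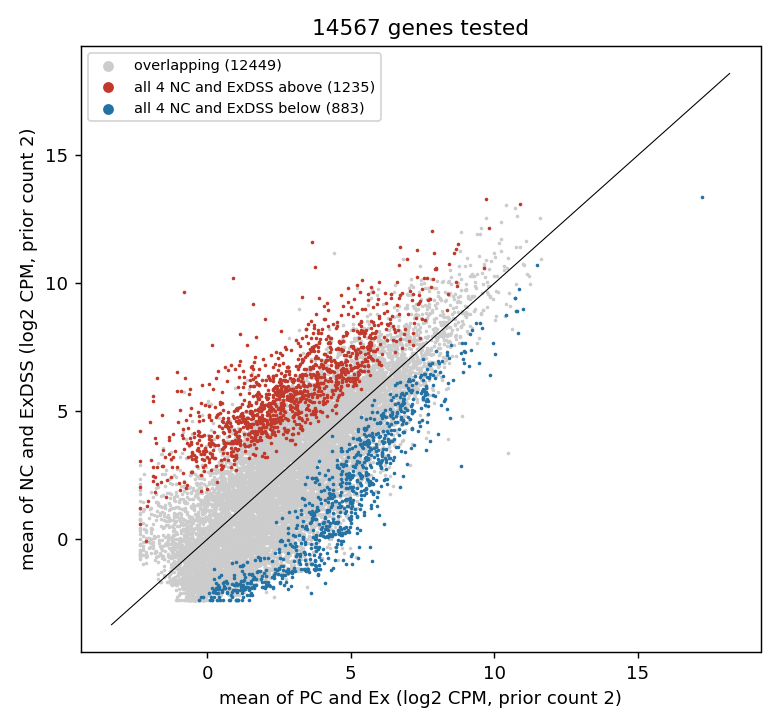
Mean log2 CPM (prior count 2) of the 4 PC and Ex libraries on the horizontal axis against the mean of the 4 NC and ExDSS libraries on the vertical axis, 1 point per gene tested, with the line of equal means. The 1235 genes in red lie above the line and the 883 in blue below it, and the red points reach farther from it.

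With all 8 libraries, separation was wider among higher members. Ex 2 had no count for 608 of the 1235 higher members. Without it there were 1461 higher and 2956 lower members, and gaps in that setting are not given here. Over all 8 libraries, the gap was at least 1 in 338 higher and 129 lower members, at least 2 in 128 and 19, and at least 3 in 55 and 3. The median gap was 0.51 and 0.38, and the median difference of side means was 2.84 and -2.79 on the log2 scale, beside -0.24 for all genes tested. At the threshold, the 3 higher members just inside a gap of 0 were Ndufaf7, Cdkal1 and Psmd9, and the genes just outside were Pla2g1b, Cela3a and Nhp2l1. Pla2g1b and Cela3a, of the pancreas, had no count in PC and Ex and means of 164.1 (SD 228.9) and 26.94 CPM (SD 43.14) in NC and ExDSS. Their place at the threshold is a tie at no count with an NC or ExDSS library, not a near miss between measured levels. Cdkal1 stood at 32.5, 87.5, 35 and 36.7 CPM on the NC and ExDSS side and 22.9, 32.4, 26.7 and 13.4 CPM on the other, and Nhp2l1 at 71.4, 118, 80.5 and 72.8 against 63.2, 66.2, 71.4 and 1.49 CPM. Among lower genes, Armc8, Phf13 and Shprh were just inside and Ccnk, Mettl14 and Chuk just outside.

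From here, the 4 values of a side are CPM in the order NC 1, NC 2, ExDSS 1, ExDSS 2 or PC 1, PC 2, Ex 1, Ex 2, and a fold is the ratio of the side means. The first genes given are from the 15 with the widest gap among higher members with a mean of at least 5 CPM. S100a8 stood at 825, 792, 1171 and 559.5 against 0.291, 0.628, 1.12 and 0 CPM, 1640-fold by the means. S100a9 stood at 1144, 1128, 1427 and 1033 against 0.51, 0.628, 3.17 and 5.96 CPM, 461-fold. Saa3, which epithelium and macrophages make in inflammation, was the most abundant of the 15 at 2551, 3408, 4380 and 2549 against 6.62, 5.18, 19.6 and 35.8 CPM, 192-fold. In all 3, the lowest NC or ExDSS value was far above the highest PC or Ex value in CPM.

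Il1b, the cytokine that the inflammasome matures, stood at 734, 436, 764 and 464 against 2.98, 1.81, 1.84 and 5.96 CPM (190.0-fold). Il11, a fibroblast cytokine of the interleukin-6 family, stood at 70.3, 53.5, 94.5 and 109 against 0.728, 0.314, 1.12 and 0 CPM (151-fold). Tnf, a main target of colitis therapy and not among the 15, was lower in level at 16.3, 7.25, 24.9 and 15.5 against 0.728, 0, 0.511 and 0 CPM (51.6-fold). None of the 3 cytokines overlapped between the sides. Il1b overlaps Il1bos in the table, and strand use in counting is not given, so reads of the pair may be shared.

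Neutrophil and macrophage genes formed the next group. Mmp8, the neutrophil collagenase, stood at 47.6, 34.6, 53.1 and 59.5 against 0.0728, 0.314, 0 and 0 CPM, and Retnlg, a resistin-like protein of neutrophils, at 323, 202, 298 and 233 against 7.42, 6.36, 2.25 and 0 CPM. Chil3, a chitinase-like protein of activated macrophages, stood at 63.1, 86.1, 139 and 52.8 against 0, 0.471, 0.102 and 0 CPM. Stfa2l1, a stefin protease inhibitor from a family of near copies, had no count in any of the 4 PC and Ex libraries and 13.5, 21.5, 15.8 and 27.2 CPM in the others, at least 14.9-fold higher than a floor of 3 counts per library. All 4 genes were counted in every NC and ExDSS library, and the PC and Ex values were highest for Retnlg, in PC 1 and PC 2.

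Serpina3n, a secreted serine protease inhibitor of the acute phase, stood at 633, 1987, 1634 and 3110 against 13.4, 11.6, 13.5 and 14.9 CPM (138-fold), with the lowest high value in NC 1. Serpina3f, its neighbour and overlapping with Serpina3g, stood at 51.6, 147, 175 and 57.3 against 0.364, 0.236, 0.92 and 0 CPM. The whey acidic protein family gave Wfdc12 at 32.3, 30.1, 58 and 57.1 against 0.291, 0.0785, 0 and 0 CPM and Wfdc21 at 68.5, 72.5, 92.8 and 176 against 0.728, 0.393, 2.86 and 1.49 CPM. Cd300lf, an inhibitory receptor of myeloid cells that overlaps Rab37, stood at 46.2, 49.5, 66.3 and 74.7 against 1.24, 1.18, 0.307 and 0 CPM. Gbp5, which assembles inflammasomes on bacterial products, stood at 145, 73.7, 153 and 75.3 against 2.98, 3.06, 2.56 and 0 CPM. In this group the spread on the high side was largest for Serpina3n.

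**Figure D2:**
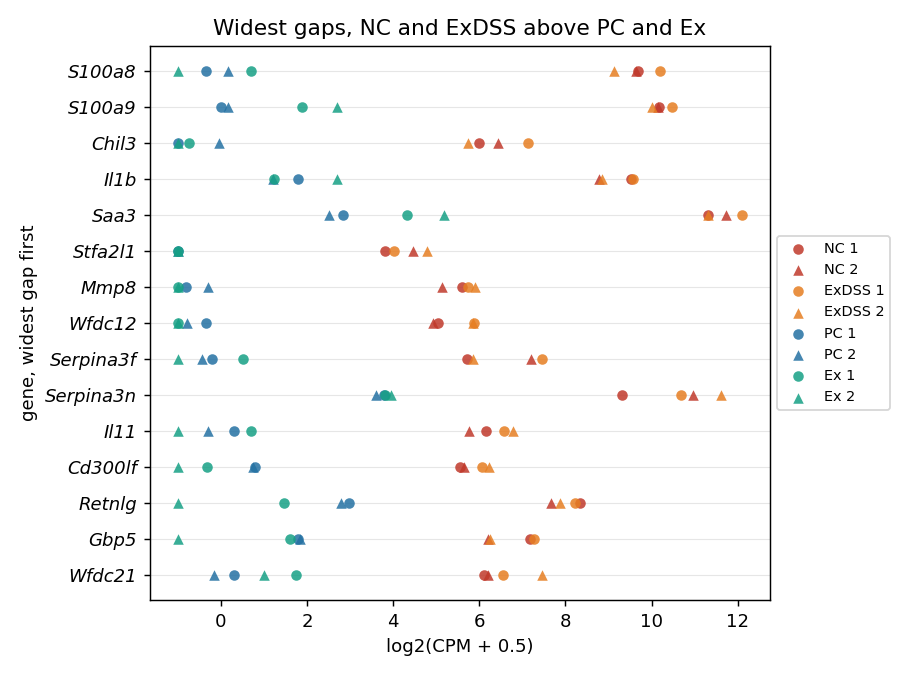
CPM in each library as log2(CPM + 0.5) for the 15 named genes with the widest gap among those higher in NC and ExDSS at a mean of at least 5 CPM, listed on the vertical axis. Circles are replicate 1 and triangles replicate 2, in 4 colours for the groups, and the NC and ExDSS points sit apart to the right of the PC and Ex points in every row, with S100a8 at a gap of 8.73.

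Across lists of genes by role, the share of tested members with no overlap is read against the 8.48% of all genes that were higher. Counts of separated members are descriptive. Among 22 neutrophil genes tested, 15 (68.2%) were higher in all 4 NC and ExDSS libraries and 0 lower, with a median difference of 4.37. The neutrophil list as a sum ran from 2149 to 3487 CPM in NC and ExDSS and from 8.94 to 68.1 CPM in PC and Ex. Cd177, a neutrophil surface protein, was an exception, at 35.2, 17.1, 24.7 and 0 against 42.7, 19.4, 3.37 and 0 CPM. Among 38 monocyte and macrophage genes, 24 (63.2%) were higher, with a median difference of 3.36. Ms4a4c, a membrane protein of the tetraspan Ms4a family, stood at 60.7, 44.6, 89.2 and 27 against 1.02, 0.55, 0.818 and 0 CPM. Ccr2, the receptor that takes monocytes out of marrow, overlapped, at 78.3, 3.91, 3.02 and 58.5 against 13.8, 11.2, 10.6 and 2.98 CPM. In bulk tissue, more cells of a type and more RNA per cell cannot be told apart.

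Of 12 CXC chemokines tested, 7 were separated: Cxcl10, Cxcl5, Cxcl2, Cxcl9, Cxcl16, Cxcl13 and Cxcl1 (names other than the first 3 given after their values were seen). Cxcl10 stood at 318, 224, 564 and 33.6 against 1.17, 0.628, 0.614 and 1.49 CPM and overlaps Art3 in the table. Cxcl5, a neutrophil attractant, stood at 594, 59, 42.2 and 103 against 0.728, 2.51, 4.91 and 1.49 CPM, and Cxcl2 at 56.8, 5.63, 2.61 and 2.6 against 0, 0.0785, 0.307 and 0 CPM. For the last 2, NC 1 was highest and the other 3 libraries were between 42.2 and 103 CPM for Cxcl5 and between 2.6 and 5.63 CPM for Cxcl2. Pf4, a platelet chemokine, overlapped at 31.9, 16.9, 5.22 and 101 against 57.6, 77.7, 124 and 4.47 CPM. Of 18 CC chemokines, 4 were separated, with Ccl8 at 447, 566, 915 and 1052 against 20.9, 21.4, 11.7 and 1.49 CPM, Ccl3 at 17.7, 24.7, 99.4 and 28.3 against 0.291, 0.707, 0.614 and 0 CPM and Ccl9 at 83.5, 486, 509 and 301 against 21.7, 18.5, 15 and 0 CPM. Ccl28, a mucosal chemokine for plasma cells, was not separated, at 22, 2.67, 0.412 and 15.1 against 25.3, 33.5, 47.6 and 0 CPM.

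Cytokines and their receptors gave 6 of 16 and 9 of 25 higher members, with no lower member in either list. Il21r, the receptor of interleukin 21, stood at 11.8, 17.1, 9.34 and 35 against 0.728, 1.73, 1.23 and 0 CPM. Bcl3, an I-kappa-B family regulator of NF-kB, stood at 77.3, 93, 129.6 and 109 against 11.4, 14, 17.8 and 4.47 CPM. Il10ra, the receptor of interleukin 10, stood at 7.3, 26.1, 17.2 and 7.8 against 1.6, 0.943, 1.12 and 0 CPM. Tnfaip3, an inhibitor of NF-kB, ran the other way without separating, at 13.4, 0.0954, 0 and 0 against 8.23, 7.62, 12.1 and 0 CPM. Csf1, a macrophage growth factor, was likewise higher by its means in PC and Ex, where Ex 2 alone stood at 59.6 CPM.

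Acute phase genes gave 7 of 15 higher and 1 lower, and the Serpina3 cluster 4 of 7 higher. Lcn2, which withholds bacterial iron carriers, stood at 103, 137, 142 and 126 against 1.17, 1.33, 2.15 and 4.47 CPM (55.7-fold). Hp, haptoglobin, stood at 121, 255, 281 and 362 against 0.655, 2.2, 4.4 and 11.9 CPM. Serpina3h stood at 5.24, 39.7, 44.4 and 34 against 0.0728, 0, 0.204 and 0 CPM, with NC 1 lowest on the high side, and Serpina3m overlapped at 5.84, 10.6, 0 and 53.8 against 0, 0, 0.204 and 1.49 CPM. Fgb, a fibrinogen chain of liver, was listed at 1.13, 0, 14 and 0 against 1.38, 3.3, 8.38 and 13.4 CPM, without separating.

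Interferon-response genes were separated in 20 of 40 (50.0%), and guanylate-binding proteins and immunity GTPases in 11 of 18 (61.1%), with median differences of 2.23 and 3.52. Without Ex 2 these were 1.27 and 2.53. Isg15 stood at 272, 193, 481 and 345 against 20.8, 11.2, 14.3 and 8.94 CPM, Usp18, which removes Isg15 from proteins, at 20.4, 26.6, 36 and 18.8 against 1.89, 0.707, 1.02 and 0 CPM, and Ifitm1, a restriction factor for viral entry, at 630.4, 674, 833 and 1194 against 48, 63.6, 76 and 10.4 CPM. Ifi47 stood at 278, 124, 201 and 87.1 against 14.3, 8.56, 5.21 and 1.49 CPM and overlaps Olfr56, and Gbp6, which has near copies, at 45.6, 13.6, 10.02 and 11.4 against 1.53, 1.73, 1.64 and 0 CPM. Irgm2 overlapped, at 87.6, 0, 11.8 and 0.503 against 14, 7.93, 8.28 and 0 CPM, and Oas1g at 25.2, 11.7, 3.98 and 21.5 against 15.5, 13.3, 15.1 and 1.49 CPM. The interferon word was in the promoters of Gbp5, Cxcl10, Isg15 and Saa3, and in none of those of Ifitm1, Ifi47 and Tap1. It was also in a promoter of Mmp13 and of Cldn7, a matrix protease and a claudin given below, so it was not confined to interferon-response genes.

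Antigen presentation gave 7 of 25 class I pathway genes and 5 of 11 class II genes. Tap1, the peptide transporter, stood at 99.5, 144, 201 and 58.5 against 8.73, 5.18, 8.08 and 1.49 CPM, and Psmb8, an immunoproteasome subunit, at 256, 313, 724 and 232 against 39.3, 44.5, 47.2 and 0 CPM. Psmb10, another, stood at 265, 993, 862 and 406 against 83.9, 74.9, 61.1 and 0 CPM. Tap2, the partner of Tap1, was not separated, at 43, 0, 0 and 4.95 against 13.7, 16.3, 23 and 4.47 CPM. Cd74, the class II invariant chain, stood at 281, 1486, 1839 and 1223 against 63.3, 88.8, 57.4 and 5.96 CPM and H2-Ab1 at 436, 681, 1025 and 600.0 against 119.7, 149, 96.5 and 2.98 CPM. H2-DMa stood at 37.9, 89.6, 268 and 113 against 11.4, 16.9, 19.9 and 1.49 CPM and H2-Eb1 at 321, 203, 273 and 440.1 against 143, 189, 146 and 7.45 CPM, with a gap of 0.10.

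Genes of tissue injury and matrix followed. Of 23 matrix proteases and inhibitors 11 were higher, and of 17 collagens 8. Mmp13, a collagenase, stood at 215, 63, 90.1 and 104 against 3.13, 2.51, 4.19 and 1.49 CPM, and Mmp3, stromelysin, at 128, 47.8, 33 and 56.6 against 1.82, 2.2, 1.74 and 0 CPM. Col18a1 stood at 57.6, 44.9, 40.9 and 49.6 against 9.39, 10.3, 9 and 0 CPM, Col3a1 at 666, 759, 978 and 671 against 328, 445, 371 and 7.45 CPM and Col1a1 at 362, 277, 390.1 and 165 against 80.7, 116, 105 and 11.9 CPM. Plau, the urokinase, and Col27a1 did not separate, and both were highest in Ex 2, at 77.5 and 55.1 CPM.

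In the epithelium, 9 of 30 defence genes and 5 of 20 squamous and wound genes were higher. Ido1, which breaks down tryptophan, stood at 25.6, 134, 216 and 12.3 against 1.02, 0.471, 0.307 and 0 CPM. Ereg, an epidermal growth factor receptor ligand, stood at 56.7, 131, 136 and 208 against 3.42, 4.01, 3.37 and 1.49 CPM, Ly6a, a marker of regenerating epithelium that stroma also carries, at 1738, 1812, 2849 and 4470 against 348, 312, 434 and 13.4 CPM, and Il33, an alarmin, at 67.1, 39.3, 62.8 and 94.9 against 4.8, 6.91, 13.1 and 0 CPM. Mptx1, a pentraxin of the epithelium, did not separate: it stood at 6.37, 0.0954, 2.33 and 2466 against 4248, 8115, 5038 and 23.9 CPM, where ExDSS 2 was high on the first side and Ex 2 low on the second. Sprr2b overlapped as well.

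Lipid mediators and the metabolism of activated myeloid cells were mixed. Of 16 prostaglandin and leukotriene genes 3 were higher and 1 lower, and of 15 myeloid metabolic genes 6 were higher. Alox15, a lipoxygenase, stood at 17.6, 13.2, 32.3 and 51 against 1.82, 0.864, 3.27 and 0 CPM, Ptges, the prostaglandin E synthase, at 24.7, 47.2, 46.3 and 18.9 against 4, 6.6, 7.57 and 0 CPM and Alox5ap at 80.5, 30.3, 39.8 and 110.1 against 10.3, 11.6, 15.2 and 0 CPM. Lta4h, which makes leukotriene B, was lower at 8.56, 0.0954, 0.137 and 0.755 against 21.6, 25.1, 26.6 and 26.8 CPM. Irg1, which makes itaconate, stood at 53.1, 20.7, 28.4 and 21.9 against 0, 0, 0 and 1.49 CPM, and Hmox1, haem oxygenase, at 16.3, 70.6, 177 and 88.9 against 0.655, 1.33, 2.25 and 0 CPM. Gpx1, a peroxidase, overlapped at 265, 187, 282 and 375 against 465, 471, 588 and 58.1 CPM.

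**Figure D3:**
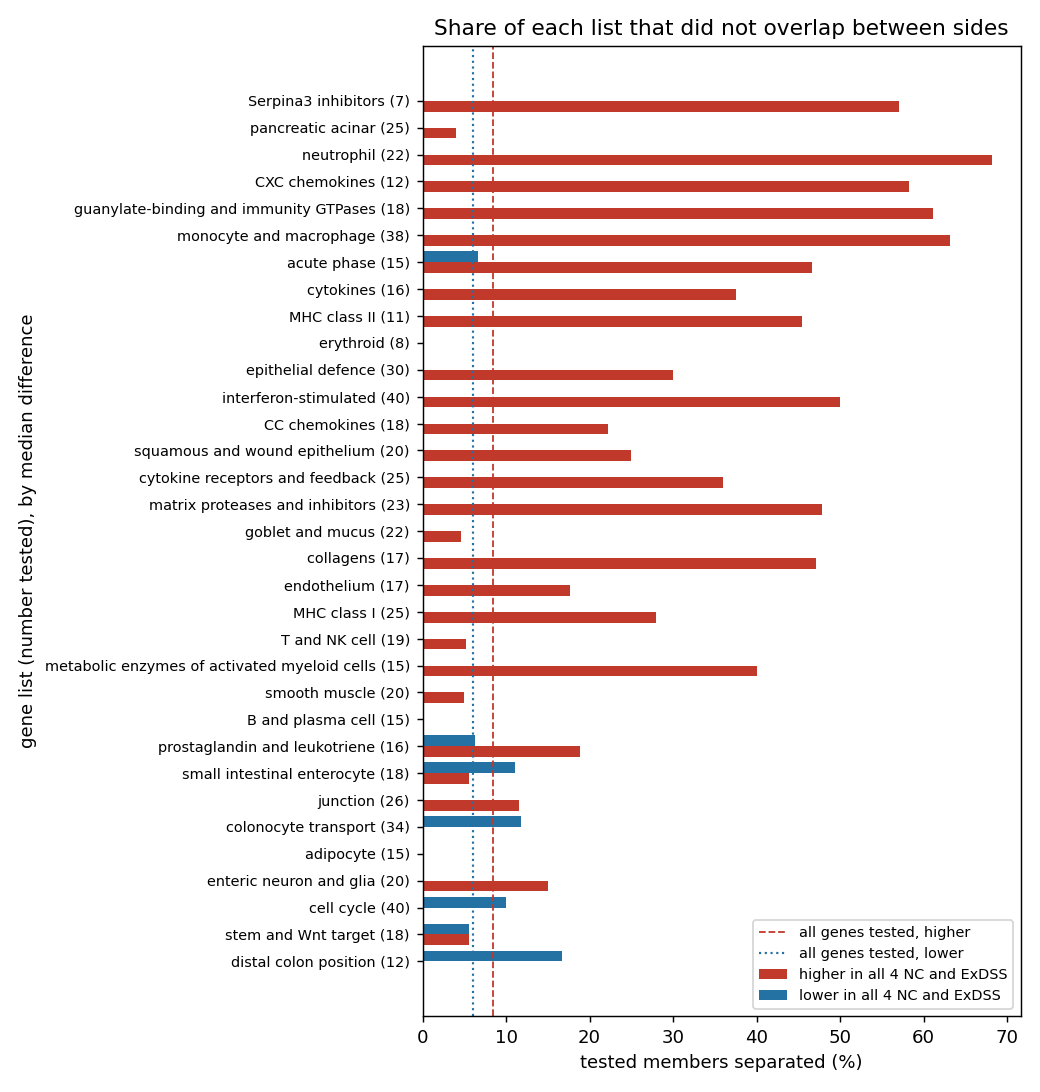
Share of tested members of each of the 33 lists, with the number tested in parentheses, that lay above (red) or below (blue) the other side in all 4 NC and ExDSS libraries, in order of median difference. The dashed line is 8.48% and the dotted line 6.06%, the shares among all genes, and the neutrophil, macrophage and interferon lists lie well to the right of the dashed line.

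Lists of resident tissue gave fewer separated members. Goblet and mucus genes gave 1 of 22 higher, Muc1, at 13.1, 13.1, 45.2 and 40.3 against 3.71, 3.14, 2.45 and 0 CPM, while Zg16, an abundant goblet protein, overlapped at 4540, 9795, 8443 and 13910 against 3469, 4982, 3754 and 53.6 CPM. Junction genes gave 3 of 26 (11.5%), among them Cldn4 at 44.4, 34.1, 43.7 and 31.8 against 13.6, 16.3, 14.4 and 1.49 CPM and Cldn7 at 199, 502, 267 and 240.2 against 91.9, 96.9, 123 and 1.49 CPM. Of 20 smooth muscle genes 1 was higher, Cald1, at 967, 2205, 1530 and 1564 against 439.6, 419.7, 446 and 41.7 CPM. Endothelium gave 3 of 17, with Vcam1, the leukocyte adhesion molecule, at 133, 124, 115 and 338 against 14.6, 17.2, 15.8 and 0 CPM, Plvap at 36.8, 43.1, 75.5 and 70.7 against 15.7, 17.3, 15.2 and 0 CPM and Egfl7 at 24.4, 42.4, 31.3 and 75 against 10.3, 12.6, 14.6 and 0 CPM. Kdr ran the other way without separating. Enteric neuron and glia genes gave 3 of 20, with Gfap, an intermediate filament of reactive glia, at 6.44, 19.9, 56.3 and 14 against 1.31, 1.18, 0.92 and 0 CPM. T and NK cells gave 1 of 19, B and plasma cells 0 of 15, adipocytes 0 of 15 and erythroid genes 0 of 8. Acinar genes gave 1 of 25 with a median difference of 4.41, which was -1.46 without NC 2 and ExDSS 1, and their sum was 203 CPM in NC 1 beside 143 to 2564 CPM in PC and Ex. Prom1, a surface glycoprotein in the stem cell list, was higher at 552, 1391, 458 and 841 against 175, 128, 91.9 and 0 CPM.

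Shorter sets of defining markers were summed for each cell type. Neutrophil markers summed to 1975 to 3021 CPM in NC and ExDSS and 8.94 to 12.6 in PC and Ex, with 7 of 10 separated. Macrophage markers summed to 971 to 3269 against 17.9 to 310, with 6 of 9, and fibroblast markers to 3456 to 4378 against 55.1 to 2619, with 4 of 6. T cell markers reached 52.1 CPM at most. Smooth muscle markers overlapped, at 1719 to 2891 against 32.8 to 4098 CPM, where the low value is Ex 2. The tissue markers Hoxb13, Hoxd11, Hoxd12, Hoxd13 and Hoxa13, homeobox genes of the distal gut, summed to 0.0954 to 24.3 CPM in NC and ExDSS and 32.8 to 261 CPM in PC and Ex. Whether the sides differ in the length of gut that was sampled was not tested, and it cannot be told apart from the other differences.

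Among lower members with a mean of at least 5 CPM, Cks2, a cyclin-dependent kinase subunit, had the widest gap (2.03), at 7.77, 1.72, 4.53 and 5.37 against 42.8, 32.3, 46.6 and 112 CPM. Hoxd13, a homeobox gene of the distal gut, stood at 1.13, 0, 0 and 1.93 against 8.44, 42.4, 58.5 and 10.4 CPM, and Hoxb13, a further one, did not separate because Ex 2 was at 0, at 5.91, 0, 5.22 and 18.1 against 83.1, 152, 183 and 0 CPM. Ptma, prothymosin, was the most abundant of the 15 lower genes, at 120.4, 106, 124 and 129.9 against 576, 488, 498 and 1750 CPM. Slc16a1, the butyrate and lactate transporter of colonocytes, stood at 47.3, 9.26, 3.71 and 24.6 against 143, 147, 204 and 507 CPM. On the PC and Ex side the 3 deeper libraries agreed closely for Ptma and Slc16a1, and Ex 2 was above them.

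Cnot3, a deadenylase subunit that overlaps Leng1, stood at 3.98, 1.81, 0 and 0.0839 against 15.6, 21.1, 21.9 and 34.3 CPM. Nudt21, a cleavage factor for polyadenylation, stood at 5.24, 0.0954, 0.412 and 5.87 against 20.8, 19.3, 27.3 and 19.4 CPM, and Ago2, the slicer of RNA interference, at 2.26, 0.0954, 0 and 2.77 against 13.9, 13.1, 13.3 and 8.94 CPM. Prkaca, the catalytic subunit of protein kinase A, stood at 7.83, 0, 0.412 and 2.68 against 30.4, 25.4, 33.1 and 99.8 CPM. Zfp367, a zinc finger protein, stood at 7.17, 0.0954, 0.137 and 0 against 24, 25.1, 21.2 and 156 CPM, Pdia5 at 4.51, 2.19, 0 and 0.0839 against 26.8, 18.5, 14.1 and 40.2 CPM and Atxn1 at 6.51, 6.2, 0 and 0.0839 against 19.2, 23.8, 20.9 and 34.3 CPM. Trmt1l stood at 3.12, 0, 0 and 0.0839 against 9.54, 12.7, 12 and 20.9 CPM. Ccdc14 and Ccar2, which overlaps Bin3, had PC and Ex values under 5 CPM in the 3 deeper libraries and 74.5 and 38.7 CPM in Ex 2. Their NC and ExDSS means were 0.166 and 0.116 CPM, so both reached the mean of at least 5 CPM only through Ex 2. Pcdhga9 shares exons with a cluster of protocadherins, so its counts are uncertain.

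**Figure D4:**
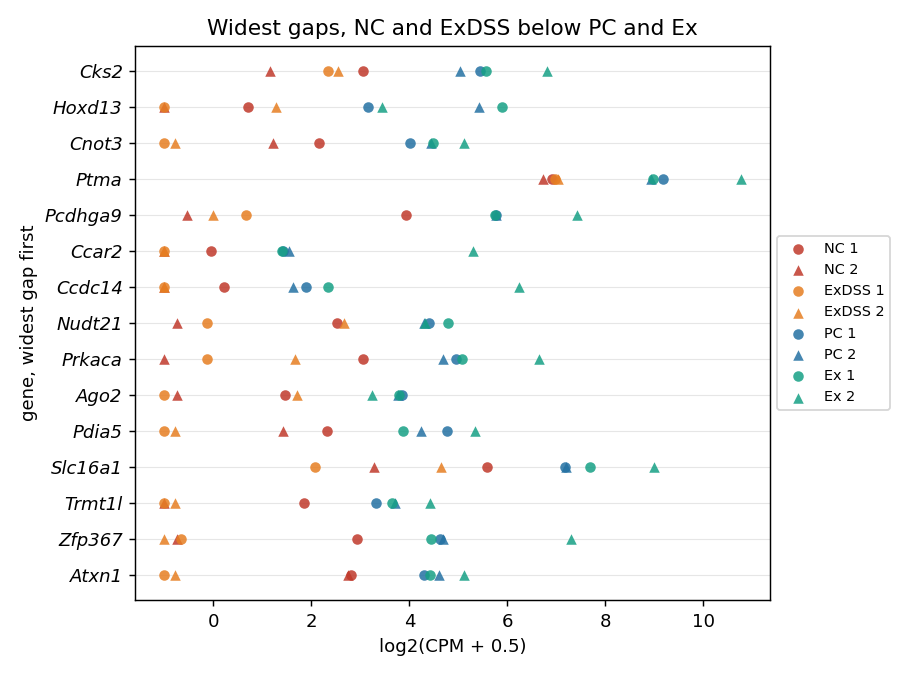
CPM in each library as log2(CPM + 0.5) for the 15 named genes with the widest gap among those lower in NC and ExDSS at a mean of at least 5 CPM, with the same marks as for the higher genes. The gaps of these 15 are at most 2.03, and the point farthest right is Ex 2 in most rows.

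Of 40 cell cycle genes 4 were lower and 0 higher, beside 6.06% of all genes, with a median difference of -1.11. Kif20b, a mitotic kinesin that overlaps Snora19, stood at 28.6, 8.59, 0 and 0.0839 against 75.5, 46.1, 54.8 and 83.5 CPM, Hmgb2 at 61.4, 40.9, 11.8 and 12.1 against 137, 96.5, 113 and 112 CPM and Bub1, a spindle checkpoint kinase, at 3.12, 0.382, 0 and 0 against 9.9, 4.56, 5.62 and 28.3 CPM. Tyms, which makes thymidylate, overlapped at 31.4, 21.8, 40.1 and 31.1 against 32.4, 25.4, 26.9 and 0 CPM. Of 12 distal colon genes 2 were lower, Hoxd13 and Hoxd9 (the second named after its values were seen), with a median difference of -2.04. The difference was negative in 10 and positive in 2. Hoxa11 ran the other way without separating, at a mean of 15.2 CPM in NC and ExDSS against 6.43 CPM in PC and Ex. Of 18 stem and Wnt genes, 1 was lower and 1 higher (5.56% each, beside 6.06% and 8.48% of all genes), with a median difference of -1.65. The lower one, Sox9, a transcription factor of crypt base cells, stood at 65, 20.3, 20.5 and 30.9 against 119.7, 120.3, 90.6 and 294 CPM. Of 34 colonocyte transport genes 4 were lower and 0 higher, and Slc5a8, a butyrate carrier, overlapped at 61.6, 54.3, 40.5 and 32 against 72.5, 89.9, 103 and 1.49 CPM. Of 18 small intestinal genes, 1 was higher and 2 lower.

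The number of members turned on single libraries. Among higher members, NC 1 was the lowest of the 4 NC and ExDSS libraries in 757, while the highest of the other side was Ex 1 in 434, PC 1 in 401, PC 2 in 350 and Ex 2 in 50. Ex 2 had no count for 608 of the 1235 and fewer than 3 counts for 902. Among lower members, Ex 2 was the highest library in 650 of 883, and NC 1 was nearest to the PC and Ex side in 683. Without Ex 2, higher members were 1461 (10% of genes tested) and lower ones 2956 (20.3%), and without NC 1 they were 1867 and 1688. In each of these settings the neutrophil list had 15 higher genes, the macrophage list 24, the interferon list 20 and the GTPase list 11. A library left out is a condition removed, so these counts could hardly fall, and they do not measure stability. Over all genes the higher members rose from 1235 to 1461 and 1867 in the same settings. Without Ex 2 the lower counts were 13 of 34 for colonocyte transport, 5 of 12 for distal colon position, 12 of 40 for the cell cycle, 8 of 20 for smooth muscle, 7 of 18 for stem and Wnt genes, 7 of 30 for epithelial defence and 5 of 26 for junction genes, beside the 20.3% of all genes.

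**Figure D5:**
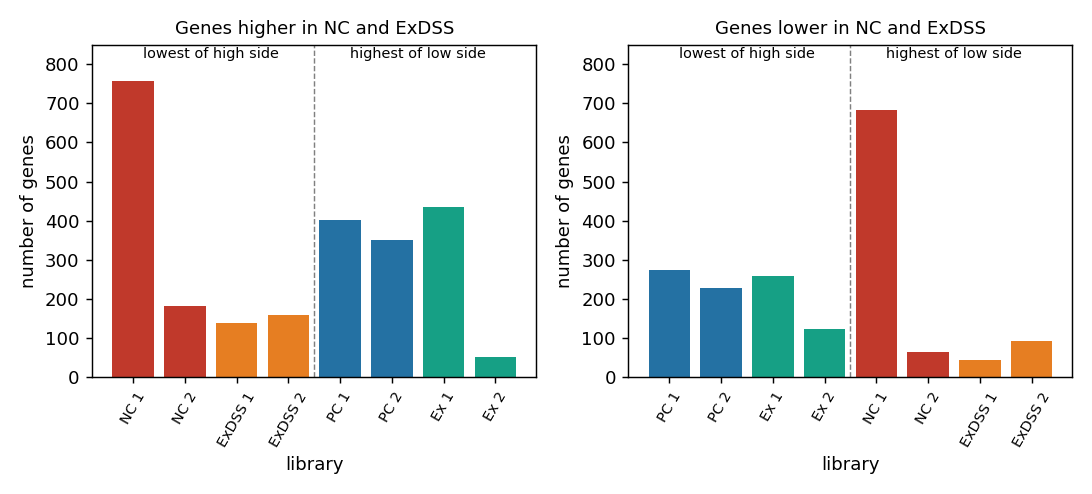
Number of members for which each library was the lowest of the high side (left of the dashed line) or the highest of the low side (right of it), for genes higher (left panel) and lower (right panel) in NC and ExDSS. NC 1 is the tallest bar in both panels, at 757 and 683.

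Of the 1235 higher members 42.8% had another within 100 kb, and of the 883 lower members 25.7%. There were 72 runs of 3 or more higher members and 14 of lower members. The largest lower run held 19 genes over chr19:24919916-60774385, too long a stretch for a chain of close neighbours. The sets differ in size, so these shares are not compared. No share over all genes tested was worked out, so neither the shares nor the runs are read as clustering. On chr7:140835496-141266424 there were 8 higher members, Ifitm1, Ifitm2, Ifitm3 and Irf7 among them, and on chr17:34122832-34316674 there were 6, H2-DMa, Tap1, Psmb8, H2-Ab1, H2-Aa and H2-Eb1. Further runs were Ms4a7, Ms4a4c, Ms4a6b, Ms4a4d and Ms4a6d on chr19:11321039-11604804 and Ccl9, Ccl3, Wfdc17, Wfdc18 and Wfdc21 on chr11:83572917-83752646, chosen after their values were seen. A run is a chain in which each member starts at most 100 kb beyond the farthest end of those before it. A gene line with a wide span can thus join distant genes, as in the run of 19. That run is counted in the 14 runs and in the 25.7%. Near copies within a run can share reads.

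For ExDSS against NC, 0 of 14567 genes (0.0%) were called with edgeR's quasi-likelihood test at a Benjamini-Hochberg adjusted p under 0.05, with 1800 at an unadjusted p under 0.05 and a smallest adjusted p of 0.350. For Ex against PC it called 0 (0.0%), with 218 and a smallest adjusted p of 1.00. DESeq2 called 840 and 81, and limma-voom 429 and 0. Of the 1235 higher members, 5 and 0 had an unadjusted p under 0.05, and of the 883 lower members 129 and 14. These stand beside the 1800 and 218 of all 14567 genes. The rule that chose the members favours values lying close together within a side, so these counts are no independent result about them. The median log2 fold change of higher members was 0.26 for ExDSS against NC and -0.73 for Ex against PC, beside -0.41 and -0.50 for all genes. A p that misses the threshold does not show that the groups were alike.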

How the data were processed

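The authors deposited raw counts for each gene line, 1 column for each of the 8 libraries, all matched to sample titles. Bowtie2, bedtools, edgeR and the build mm9 are named, with no versions, per the submitters' processing notes. Of 21979 gene lines matched by symbol and chromosome, 99.67% overlapped the GRCm38.p6 gene, so coordinates are given as the table has them. Counts were scaled with TMM in edgeR 4.0.16 (R 4.3.3). filterByExpr (minimum count 10, total 15) kept 14567 of 23282 lines, and the log2 CPM has a prior count of 2. Symbols on several lines (83 lines) were kept apart. A gene was separated where the 4 values of a side lay beyond the 4 of the other. ExDSS against NC and Ex against PC were tested with the robust quasi-likelihood F test over all 8 libraries, 4 residual degrees of freedom, with Benjamini-Hochberg adjustment. limma 3.58.1 (voom) and DESeq2 1.42.0 were alternatives. The code was checked on simulated data.

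The members and lists were chosen with earlier results of these data known. Named genes, at a mean of at least 5 CPM, are the 15 with the widest gap in each direction, the 3 widest of each list and its largest exception, the 3 on each side of the threshold, and 7 genes earlier results had pointed to. Placeholder names, antigen receptor segments and repeated symbols were left out. Exact 95% intervals of shares and floors of 3 counts cover counting error only. Rn45s was 53.5% of Ex 2 (interval 53.4 to 53.6%). Acinar genes were 21.7% of ExDSS 1 (21.6 to 21.7%) and 9.68% of NC 2 (9.66 to 9.69%).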

Additional observations from a re-analysis of the deposited data

Results flagged for a closer look

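Of 91 values tested for a library standing apart within its side, 11 passed Dixon's 95% criterion for 4 libraries, which chance alone passes in about 1 of 20 groups. In 6 lower members the odd library was Ex 2: Ptma at 1750 CPM, Pcdhga9 at 171, Ccar2 at 38.7, Ccdc14 at 74.5 and Zfp367 at 156 were highest there, and Ago2 at 8.94 was lowest. Serpina3h was lowest in NC 1 at 5.24 CPM among the NC and ExDSS libraries, and Vcam1 was highest in ExDSS 2 at 338 CPM. Ex 2 had the fewest genes detected, 8760, and the largest share of Rn45s, 53.5%. NC 1 had the largest Rn45s share of its side, 5.12%.

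In 1235 genes, every ExDSS library was above every Ex library while every PC library was below every NC library, and in 883 genes the reverse held. The difference of DSS effects with and without exosomes was not tested, because the same contrast chose the genes.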

How the results depend on the processing

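The numbers of separated genes stayed within 1.5 times of 1235 and 883 under the other scalings, filters and prior counts tried, except 588 lower genes with total counts alone. A gap of at least 1 left 338 and 129. Leaving out 1 library gave 1306 to 1867 higher and 920 to 2956 lower genes, with NC 1 (1867 and 1688) and Ex 2 (2956 lower) moving them most. Leaving out NC 2 and ExDSS 1, the libraries with pancreatic RNA, gave 2501 higher genes. Leaving out Ex 2 as well, an alternative chosen after seeing the data, gave 3032 and 4145. Fewer libraries have to be passed in these settings, and how far this accounts for the counts was not tested. ExDSS against NC had 0 genes called by edgeR with each library left out, 1 without the filter, 840 with DESeq2 and 429 with limma-voom. Ex against PC had 0 to 1112, the highest without Ex 1, where Ex 2 stands alone and is assumed to vary like the others, 5 without the filter and 81 with DESeq2. The cause of these differences was not tested. With a replicate block both comparisons had 0 genes called, and a crossed block gave 0 for ExDSS against NC. Deviations of same-numbered libraries correlated at -0.15 for NC and ExDSS. With 2 libraries per group, and pancreatic RNA in NC 2 and ExDSS 1, this value cannot show whether the replicate numbers pair the libraries.

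The median difference of all genes was -0.24 with TMM, -0.32 with RLE, -0.47 with upper-quartile factors and -0.33 with total counts. It was -0.79 without Ex 2, 0.077 without ExDSS 1 and 0.12 without NC 2 and ExDSS 1. The neutrophil, macrophage, cytokine, chemokine, interferon, GTPase and MHC lists had a positive median in every setting. Without Ex 2 the median fell from 2.23 to 1.27 for interferon genes, from 2.23 to 0.80 for CC chemokines, from 2.41 to 0.91 for MHC class II, from 1.30 to 0.41 for MHC class I, from 2.76 to 1.60 for acute phase, from 2.16 to 0.99 for cytokine receptors, from 2.26 to 1.02 for epithelial defence, from 1.64 to 0.67 for matrix proteases, from 1.44 to 0.60 for collagens, from 1.32 to 0.35 for endothelium and from 2.39 to 0.94 for erythroid genes. The colonocyte transport median, 0.02, turned to -0.12 with RLE, -0.31 with upper-quartile factors, -0.092 with total counts, -0.044 and -0.033 with prior counts of 0.5 and 5, and ran from -1.18 to 0.66 with 1 library left out. With 1 library left out, medians ran from -0.41 to 1.39 for prostaglandins, -0.57 to 1.13 for small intestine, -0.23 to 2.23 for goblet, -0.36 to 0.95 for junction, -0.48 to 1.27 for smooth muscle, -0.88 to 0.075 for neuron and glia, -0.27 to 1.47 for B cells and -1.47 to 0.63 for adipocyte genes. Without the 2 pancreatic libraries the acinar median was -1.46, that of neuron and glia 0.67 and that of adipocytes 0.39. With Ex 2 also left out they were -1.56 for acinar and 0.33 for neuron and glia, and -1.35 for colonocyte transport, -0.41 for small intestine, -0.37 for goblet, -0.34 for junction and -0.55 for smooth muscle. The depth of Ex 2 limits every statement that a gene was low there.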
